A study of Mus musculus with 6 samples.

Results

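Ependymal nuclei of the mouse septal area were chosen by raw UMI counts, as the barcodes with 500 or more detected genes, no more than 5% mitochondrial UMIs, 5 or more UMIs of the ciliary dynein gene Dnah12 and no more than 1 UMI of Gad1 and Gad2 together. UMIs are unique molecular identifiers, each standing for 1 captured RNA molecule. The rule took 2718 of 54605 nuclei that passed the limits on genes and mitochondrial UMIs, out of 55537 barcodes. The tissue was brain labelled as septal area, from wild type mice, in 6 droplet libraries that form 1 group and are called replicates 1 to 6. No label gives age, sex, the number of animals or the dissection, so p-values reflect nothing beyond the variation among these libraries, which may be technical. Because the labels name no contrast between libraries, ependymal nuclei were compared with astrocytes of the same libraries, a glial class that also descends from radial glia.

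Ependymal cells form a single layer of epithelium that lines the brain ventricles and carries tufts of motile cilia, whose beat moves cerebrospinal fluid along the wall. They arise from radial glia, share many genes with astrocytes, and in the forebrain border the stem cell niche under the lateral ventricle, which lies beside the septum. A motile cilium has an axoneme of doublet microtubules with dynein arms that drive the beat, radial spokes and a central apparatus that regulate it, and a nexin-dynein regulatory complex that links neighbouring doublets. Transcription factors of the RFX family bind X-box motifs near the starts of ciliary genes, and together with FOXJ1 they switch on the motile program.

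The 6 libraries held 7393 to 11134 barcodes and 70183544 to 95175260 UMIs each, and barcodes shared between 2 libraries came to 0.162 to 0.433% of the smaller library's barcodes. Ependymal nuclei numbered 494, 582, 288, 602, 486 and 266 in replicates 1 to 6, with 1256849 to 2532211 UMIs per library. Their median depth per nucleus was 3016 to 4304 UMIs across libraries, against 3287 to 4313 UMIs in astrocytes. Doublets were kept, because the rule does not remove them. A caller based on simulated doublets marked 171 of the ependymal nuclei (6.29%), and only 52.6 to 61.1% of simulated doublets reached its threshold.

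The 3 given markers other than Dnah12, and all 12 further ependymal markers, were higher in ependymal nuclei than in astrocytes with no overlap between libraries. Cfap299, a gene of a protein associated with cilia and flagella, stood at 4055 ± 302 counts per 1000000 UMIs (CPM) in ependymal nuclei and 23.8 ± 7.696 CPM in astrocytes (SD, n = 6). Tmem212, a transmembrane protein gene, stood at 1299 ± 58.3 against 7.39 ± 2.57 CPM. Spag17, which encodes a protein of the central apparatus, stood at 1276 ± 63.7 against 5.49 ± 1.697 CPM. The transcription factor gene Foxj1 had 53.7, 68.8 and 75.2 CPM in the lowest, median and highest ependymal library, against 1.301, 1.37 and 2.93 CPM in the astrocyte libraries. These genes travel with the gene of the rule, so their levels describe the nuclei and were not tested.

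Among nuclei with no more than 1 Gad1 and Gad2 UMI, 1331 held 1 Dnah12 UMI, 198 held 2 and 290 held 3 or 4, while 328 held 5 or 6, 557 held 7 to 9, 1230 held 10 to 19, 538 held 20 to 39 and 65 held 40 or more. Just inside the threshold, at 5 or 6 UMIs, Cfap299 stood at 3538 ± 442 CPM and the neuronal gene Syt1 at 501 ± 239.8 CPM. Just outside it, at 3 or 4 UMIs, Cfap299 stood at 2096 ± 451 CPM and Syt1 at 1352 ± 500.3 CPM (SD, n = 6). A further 327 nuclei with 5 or more Dnah12 UMIs were left out for 2 or more Gad1 and Gad2 UMIs. Their median UMI count was 15801 ± 2091 over libraries, their Syt1 level 2965 ± 299 CPM, and 195 of them (59.6%) were marked as doublets.

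Ependymal nuclei made up 5.17, 5.56, 4.03, 5.47, 5.33 and 3.64% of the passed nuclei of replicates 1 to 6, with a mean of 4.87 ± 0.819% (SD, n = 6). Replicates 3 and 6 were lower than the other libraries. Their 95% exact binomial intervals, 3.58 to 4.51% and 3.22 to 4.10%, did not reach the lowest interval of the other 4 libraries, 4.73 to 5.63%. These intervals cover counting error only. The mean share depended on the threshold and was 3.33% at 10 or more Dnah12 UMIs and 5.84% at 500 or more Dnah12 UMIs per 1000000.

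**Figure D1:**
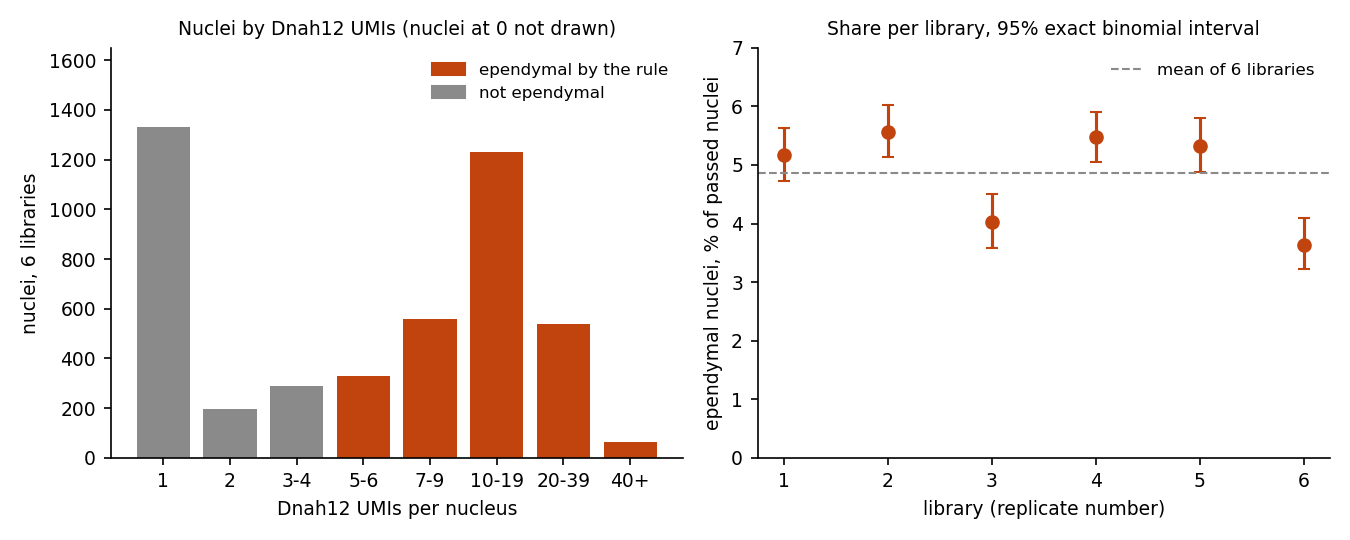
Left, number of nuclei (6 libraries together, no more than 1 Gad1 and Gad2 UMI) by Dnah12 UMIs per nucleus, with the ependymal nuclei of the rule in orange; the 28618 nuclei at 0 are not drawn. Right, ependymal nuclei as a percentage of passed nuclei in each library with 95% exact binomial intervals; replicates 3 and 6, at 4.03 and 3.64%, lie under the other 4, at 5.17 to 5.56%.

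Clustering of the 2718 ependymal nuclei on their own gave 2 large and 4 small clusters. Cluster 1 held 1826 nuclei (67.2%) and cluster 2 held 706 (26.0%), and both were present in every library, at 59.7 to 74.3% and 17.6 to 33.3% of its ependymal nuclei. The 4 small clusters held 186 nuclei (6.84%), of which 166 were marked as doublets, against 5 of those in clusters 1 and 2. Cluster 3 (82 nuclei) carried the astrocyte gene Gpc5 at 6672 CPM, against 321 CPM in cluster 1, and cluster 4 (50 nuclei) carried the myelin gene Mbp at 2429 CPM, against 56.5 CPM in cluster 1. Cluster 5 (31 nuclei) had the transcription factor genes Ebf2 and Ebf3 among its leading genes and a median depth of 13990 UMIs. The small clusters stay unnamed, and each comparison was repeated with clusters 1 and 2 only, a choice made after seeing the data.

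In clusters 1 and 2, the motile cilium marker Cfap299 stood at 4342 and 4743 CPM, and Spag17 at 1366 and 1461 CPM. Of 5661 genes at 30 CPM or more in either, 4 were higher in cluster 1 and 8 in cluster 2 by 1 or more on the log2 scale (10 CPM added). These are values over the 6 libraries with no test, since the same genes drew the clusters. On the side of cluster 1, the collagen gene Col6a5 stood at 77.5 ± 17.7 CPM in cluster 1 and 14.4 ± 15.1 CPM in cluster 2 (SD, n = 6). Eya2, a transcriptional coactivator gene, stood at 33.98 ± 7.84 against 3.65 ± 4.29 CPM, Colec12, a scavenger receptor gene, at 49.3 ± 9.18 against 12.5 ± 4.41 CPM, and Tshr, the thyrotropin receptor gene, at 110.0 ± 8.12 against 53.4 ± 18.2 CPM. On the side of cluster 2, Mecom, a zinc finger transcription factor gene, stood at 63.3 ± 9.997 CPM in cluster 1 and 166 ± 28.3 CPM in cluster 2. Ror1, a receptor for Wnt5a, stood at 59.7 ± 15.4 against 166 ± 37.5 CPM, Wls, which carries Wnt proteins to the cell surface, at 117 ± 20.2 against 254 ± 39.3 CPM, and Lmo3, a transcriptional cofactor gene, at 22.9 ± 5.28 against 73.03 ± 14.9 CPM. The forebrain transcription factor gene Pax6 was at 8.41 ± 3.18 against 31.6 ± 12.8 CPM and the reelin receptor gene Lrp8 at 122 ± 13.4 against 240.2 ± 40.5 CPM. Each of these 10 genes lay on the same side in all 6 libraries, and Tshr and Lrp8 differed by 0.92 and -0.93, under 1 on the log2 scale.

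**Figure D2:**
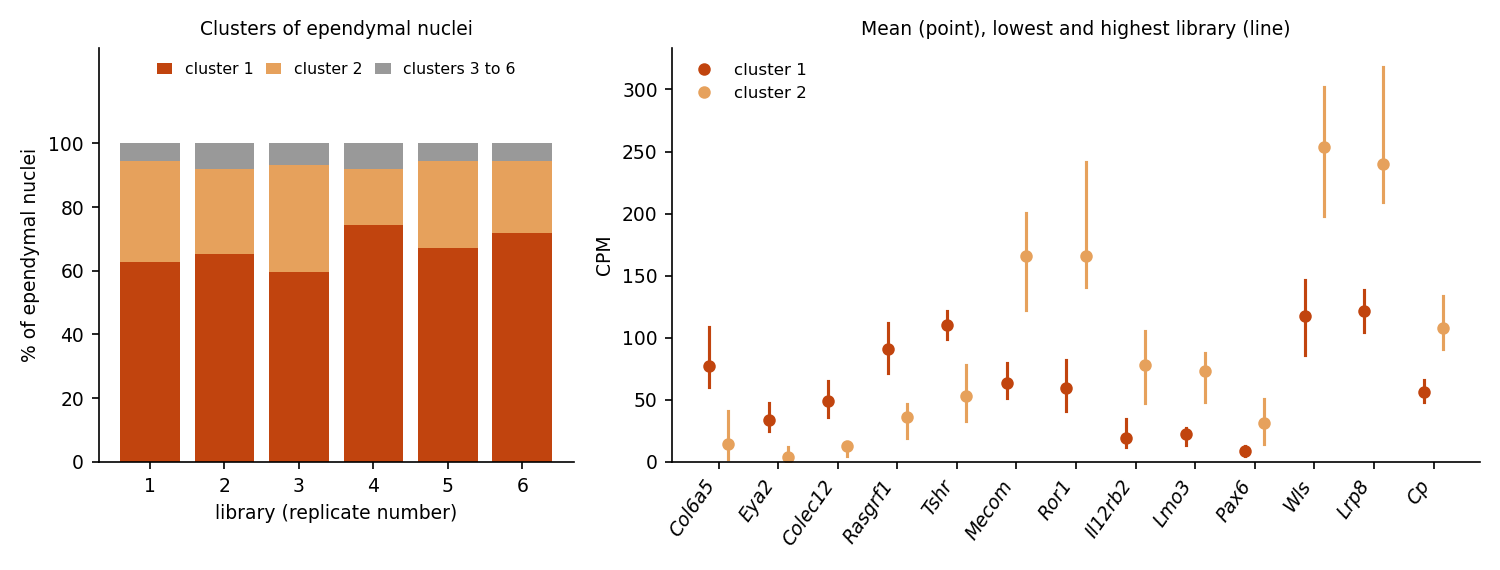
Left, percentage of each library's ependymal nuclei in cluster 1, cluster 2 and clusters 3 to 6 together; cluster 1 is the largest in every library. Right, CPM of 13 genes in clusters 1 and 2, with the mean over 6 libraries as a point and the lowest and highest library as a line; Mecom, at 63.3 and 166 CPM, and Col6a5, at 77.5 and 14.4 CPM, differ in opposite directions.

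In the comparison with astrocytes, 9174 nuclei with 5 or more UMIs and 2000 or more CPM of the glutamate transporter gene Slc1a2, no more than 1 Dnah12 UMI and few UMIs of other classes were the other side. UMI counts were summed per library and class and tested with edgeR's quasi-likelihood test with library as a block. Of 14201 genes tested, 5034 (35.4%) were higher and 4552 (32.1%) lower in ependymal nuclei at an adjusted p under 0.05, which is 67.5% in either direction, and for 49.8% the 6 ependymal and 6 astrocyte libraries did not overlap. Every count of genes below is to be read against these shares. Differences are on the log2 scale, ependymal minus astrocyte, and their median over all genes tested was 0.00. Genes used to choose either class have no test. A gene could pass the filter on low counts through 1 class alone, and for such genes levels are given with no fold or p. Counts of higher and lower genes, in the lists and over all genes, include them.

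Markers of other cell types were read beside this comparison. The 8 neuronal markers summed to 466 to 860 CPM per library in ependymal nuclei, 437 to 661 CPM in astrocytes and 3527 to 3940 CPM in all other nuclei. The 8 oligodendrocyte markers summed to 680 to 991 CPM in ependymal nuclei, 392 to 592 CPM in astrocytes and 1178 to 1837 CPM in all other nuclei. Of 7 tested, 5 were higher in ependymal nuclei than in astrocytes. With clusters 1 and 2 only, none of these 7 was higher and 5 were lower. The 8 astrocyte markers summed to 1272 to 2082 CPM in ependymal nuclei, against 18498 to 19566 CPM in astrocytes. The 11 choroid plexus markers summed to 267 to 361 CPM in ependymal nuclei, 170 to 223 CPM in astrocytes and 701 to 736 CPM in all other nuclei. Of 7 tested, Clic6, Otx2 and Enpp2 were higher and Kcnj13 lower. Folr1, also counted as higher, passed the filter on low counts through ependymal nuclei and is given as levels. With clusters 1 and 2 only, 3 of 7 were higher and 2 lower. Of these markers Ttr, which defines that epithelium, was at 0.214 CPM in ependymal nuclei and 0.123 CPM in astrocytes, while Folr1, a folate receptor gene, stood at 34.6 ± 3.98 against 0.242 ± 0.272 CPM (SD, n = 6). The 10 tanycyte markers summed to 139 to 157 CPM in ependymal nuclei and 215 to 244 CPM in astrocytes. Of 6 tested, Crym, Dio2, Lhx2 and Vcan were lower. Scn7a, counted as higher, also passed the filter through ependymal nuclei, and its levels were 64.9 ± 5.75 against 1.12 ± 0.448 CPM. The defining tanycyte gene Rax was at 0.0814 CPM in ependymal nuclei and 1.07 CPM in astrocytes. Free RNA from other nuclei can give UMIs of a gene in any class, and its part in these levels was not tested.

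Of 16 measured ciliary regulators, 11 had all 6 ependymal libraries above the astrocyte libraries and 2 had all below, with a median log2 difference of 2.52. Trp73, a p53 family gene needed for multiciliated cells, had 99.05, 119 and 127 CPM in the lowest, median and highest ependymal library, against 0, 0.516 and 1.48 CPM in the astrocyte libraries. Myb stood at 101.0 ± 10.7 against 0.659 ± 0.377 CPM, and Gmnc, whose product starts multiciliated differentiation, at 52.5 ± 13.6 against 0.695 ± 0.422 CPM (SD, n = 6). Deup1, which encodes the scaffold of deuterosomes on which the many basal bodies form, stood at 55.3 ± 8.54 against 0.799 ± 0.447 CPM. The 5 RFX genes of the list were also detected in astrocytes. Rfx2 stood at 284 ± 28.1 against 38.9 ± 3.704 CPM and Rfx3 at 1311 ± 84.2 against 579 ± 20.4 CPM, while Rfx4, a factor of astroglia, was at 272 ± 22.7 against 408 ± 21.8 CPM and Rfx7 at 159 ± 14.4 against 253 ± 10.4 CPM. These values have no test, because they travel with the gene of the rule.

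Genes of the structural parts of the cilium were higher in ependymal nuclei with 1 exception. The 6 lists of dynein heavy chains, dynein intermediate and light chains, assembly and docking factors, the nexin-dynein regulatory complex, radial spokes and the central apparatus held 96 genes, Dnah12 not among them, of which 91 had enough counts to be measured. For 90 of these 91 the ependymal libraries all lay above the astrocyte libraries. Together the 96 genes took 3.70, 3.94 and 4.09% of ependymal UMIs in the lowest, median and highest library, against 0.151, 0.157 and 0.162% of astrocyte UMIs. The median log2 difference was 6.05 for 12 dynein heavy chains, 3.99 for 15 intermediate and light chains, 4.47 for 16 assembly and docking factors, 5.14 for 13 genes of the nexin-dynein complex, 4.42 for 14 radial spoke genes and 4.97 for 21 genes of the central apparatus. By symbol, all 32 measured Cfap genes, 13 Dnah genes besides Dnah12 and 7 Rsph genes had positive differences.

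Single genes spanned a wide range within these parts. The dynein heavy chain gene Dnah6 had 1438, 1602 and 1668 CPM in the lowest, median and highest ependymal library, against 6.92, 9.38 and 11.1 CPM in the astrocyte libraries. Dnah3 stood at 1269 ± 93.7 against 6.71 ± 1.54 CPM and Dnah11 at 1578 ± 109 against 16.5 ± 1.45 CPM. The light chain gene Tctex1d4 stood at 116 ± 10.8 against 0.375 ± 0.495 CPM. Among assembly and docking factors, Armc4, which anchors outer dynein arms, stood at 728 ± 41.7 against 5.21 ± 1.45 CPM, Lrrc6 at 395 ± 16.98 against 3.32 ± 1.699 CPM and Dnaaf1 at 39.9 ± 2.59 against 0.557 ± 0.376 CPM, whereas Spag1 differed by only 0.50. Of the nexin-dynein complex, Iqca stood at 345 ± 24.4 against 2.38 ± 0.878 CPM, Tcte1 at 62.2 ± 10.8 against 0.408 ± 0.172 CPM and Fbxl13 at 707 ± 44.1 against 5.42 ± 1.601 CPM. For the radial spoke, Ak7, an adenylate kinase gene, stood at 1124 ± 46.3 against 8.07 ± 1.85 CPM and the spoke head gene Rsph4a at 118 ± 9.31 against 2.06 ± 0.459 CPM. Hydin, a central apparatus gene whose loss causes hydrocephalus in mice, had 1370.3, 1422 and 1541 CPM in the lowest, median and highest ependymal library, against 7.96, 8.58 and 10.6 CPM in the astrocyte libraries. Near-identical copies such as Dnah7a, Dnah7b and Dnah7c share reads that the counting may have split, so their single values are uncertain.

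Intraflagellar transport carries building blocks along motile and primary cilia alike. The list of 30 genes named after it also holds kinesin genes tied to motile cilia. Its median difference was smaller, 1.83, with 28 of 30 above astrocytes in all libraries. Those kinesin genes, Kif6, Kif9 and Kif27, led the list with differences of 5.56, 4.74 and 4.70. Of the transport particles, Ift88 stood at 499 ± 29.8 against 45.3 ± 3.41 CPM (SD, n = 6).

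Promoters of these genes were searched because RFX factors bind X-box motifs near the starts of ciliary genes. Binding to the promoters searched here was not measured. RefSeq windows (GRCm38.p6, 250 bases before to 50 after the start) were at hand for 142 of 173 ciliary genes, in 155 windows. The X-box was searched on both strands as GTNNCC and GNAAC with NNN between them, N being any base. It was found in 31 of the 155 windows (20%), against 714 of 32851 windows of all genes (2.17%) and 0 of 46 windows of the astrocyte list. By gene it was in 28 of 142 (19.7%), against 2.49% of all genes. The lists differed, with 7 of 11 matched assembly and docking genes and 7 of 20 central apparatus genes holding it. Only 1 of 13 dynein heavy chain genes held it, and 0 of 12 intermediate and light chain genes and 0 of 11 radial spoke genes. The half-site GTTGCC, which can lie inside an X-box, was in 41.9% of ciliary windows and 12.5% of all windows, and the forkhead motif TGTTTAC in 3.87 and 3.65%. In the 31 windows the motif began 219 bases before to 34 after the start, with a median of 19 before. Whole windows follow for Hydin (chr8:110266727-110267026, plus strand), Cfap44 (chr16:44394549-44394848, plus strand) and Cfap61 (chr2:145934534-145934833, plus strand), 3 of the 4 genes with the highest ependymal CPM among those with the motif, which is in capitals and written 5′ to 3′ along the gene.
Hydin: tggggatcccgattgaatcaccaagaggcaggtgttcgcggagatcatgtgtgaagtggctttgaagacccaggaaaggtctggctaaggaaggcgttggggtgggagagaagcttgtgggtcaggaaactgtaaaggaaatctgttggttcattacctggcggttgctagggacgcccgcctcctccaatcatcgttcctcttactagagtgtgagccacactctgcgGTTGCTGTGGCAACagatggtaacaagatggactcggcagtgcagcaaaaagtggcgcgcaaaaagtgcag
Cfap44: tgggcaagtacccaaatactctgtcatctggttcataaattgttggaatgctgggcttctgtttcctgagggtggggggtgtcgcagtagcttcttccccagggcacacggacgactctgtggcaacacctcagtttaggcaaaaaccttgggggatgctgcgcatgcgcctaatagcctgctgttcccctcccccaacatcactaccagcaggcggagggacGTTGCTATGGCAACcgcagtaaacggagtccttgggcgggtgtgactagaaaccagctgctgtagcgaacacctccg
Cfap61: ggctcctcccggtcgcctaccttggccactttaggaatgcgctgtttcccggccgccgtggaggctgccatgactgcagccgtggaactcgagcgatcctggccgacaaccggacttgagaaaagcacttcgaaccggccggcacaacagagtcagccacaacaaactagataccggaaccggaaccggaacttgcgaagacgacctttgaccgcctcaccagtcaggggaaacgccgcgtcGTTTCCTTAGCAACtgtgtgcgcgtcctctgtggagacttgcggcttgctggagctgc

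The 7 assembly and docking genes with an X-box are shown as 30 bases around it, to let the shared letters be compared: Zmynd10 (chr9:107547296-107547325, plus strand), Dnaaf2 (chr12:69198425-69198454, minus), Daw1 (chr1:83159748-83159777, plus), Ccdc114 (chr7:45924192-45924221, plus), Ccdc151 (chr9:22002647-22002676, minus), Dnaaf5 (chr5:139150209-139150238, plus) and Cfap298 (chr16:90935016-90935045, minus). Capitals mark the motif in either orientation.
Zmynd10: gctccctcGTTTCCATGGCGACgacgactc
Dnaaf2: tcccaggcGTTACTATGGCAACaaagcacg
Daw1: gtttgttaGTTTCCATGGCTACgaagcccc
Ccdc114: ggccccttGTCTCCCCAGTAACcagactac
Ccdc151: cgcgggcgGTTTCCTTGGGAACgtgggcgg
Dnaaf5: tagcgccgGTTCCCTTGGAGACaggcaacg
Cfap298: gggttttgGTTGCCCGGGCAACagctactt

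Of the 10 genes whose sequences are printed, Hydin stood at 1436 ± 71.2 against 9.02 ± 1.17 CPM, Cfap44 at 1466 ± 79.04 against 48.4 ± 2.37 CPM and Cfap61 at 1348 ± 78.96 against 11.3 ± 1.299 CPM. The 7 shorter ones ranged over 8.58 CPM (Dnaaf2) to 438 CPM (Ccdc114) in ependymal nuclei, against 1.15 CPM (Dnaaf2) and 36.5 CPM (Ccdc114) in astrocytes. A match is a description of these letters, not a binding site or a cause of the levels, and the absence of a match says only that the letters are not in the window.

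**Figure D3:**
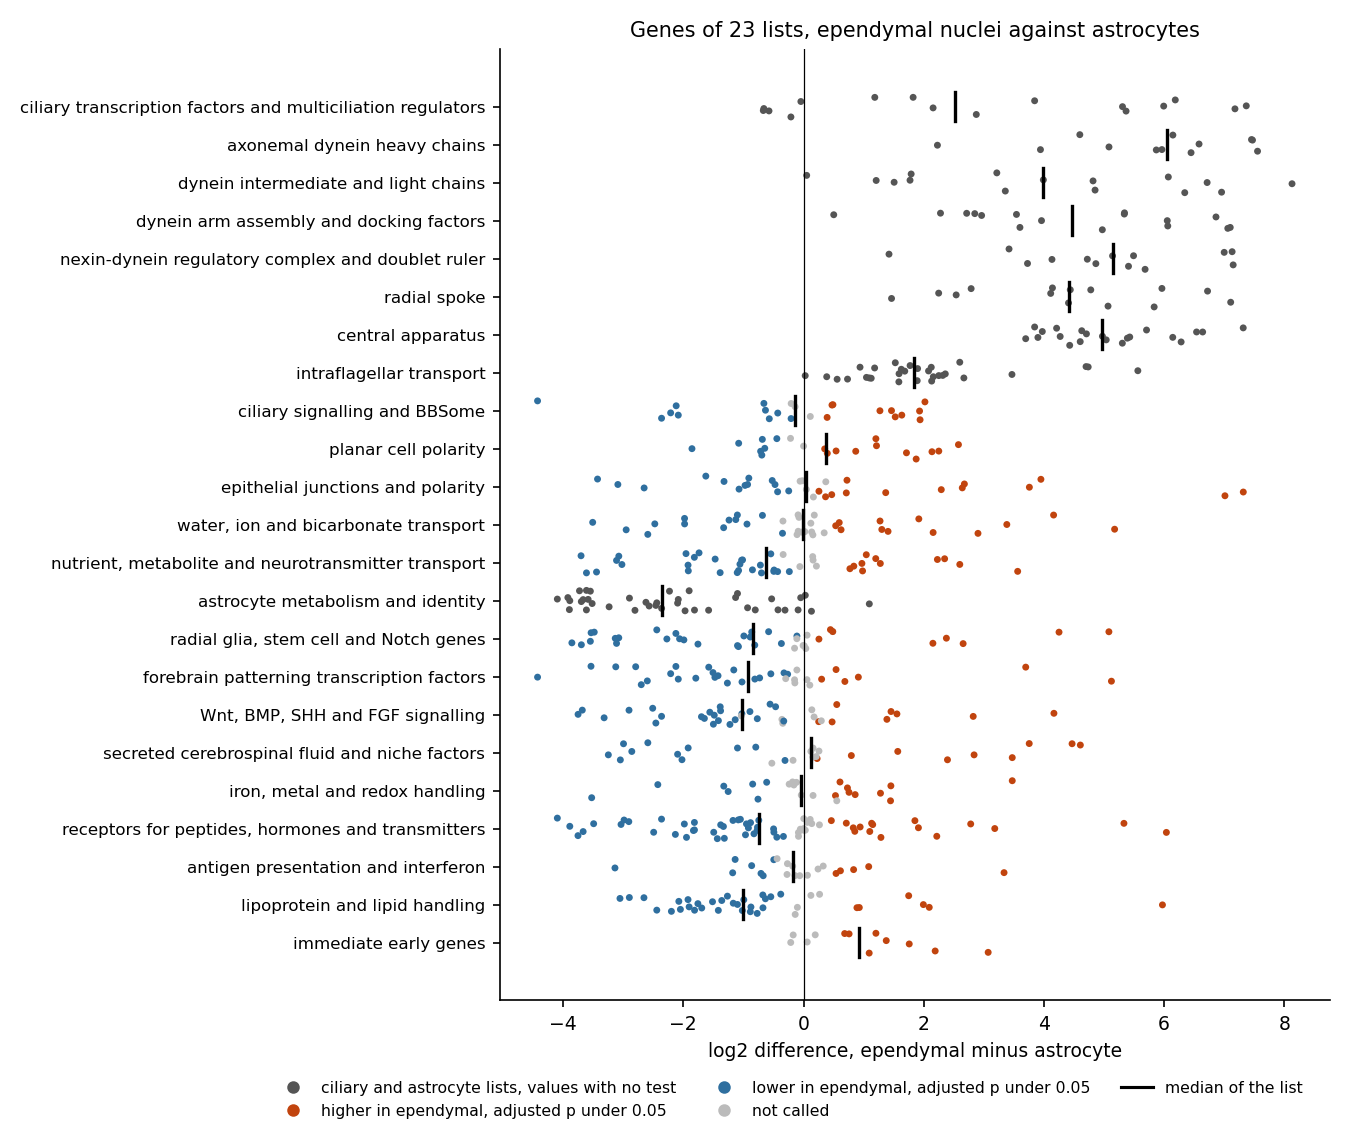
Log2 difference, ependymal minus astrocyte, of each measured gene in 23 lists, with the median of each list as a black bar. The 8 ciliary lists (grey) have medians of 1.83 to 6.05 and no test; in the others, orange and blue mark genes higher and lower in ependymal nuclei at an adjusted p under 0.05, and the astrocyte list (also grey, no test) has the lowest median, -2.36.

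Genes of primary cilium signalling divided. Of 23 tested genes of this list, 10 were higher and 10 lower in ependymal nuclei, with a median log2 difference of -0.14, against 35.4 and 32.1% over all genes. Of the BBSome, which moves membrane proteins in cilia, Bbs1, Bbs4, Bbs5, Bbs7, Bbs9 and Ttc8 were higher, Bbs2 was not called and Bbip1 was lower, with Bbs1 at 33.3 ± 4.698 against 8.26 ± 0.769 CPM and Bbs5 at 80.1 ± 7.86 against 21.02 ± 1.14 CPM (SD, n = 6). Of the Sonic hedgehog genes of the list, Smo, Ptch1, Gli2, Gli3, Gpr161, Sufu and Kif7 were lower. Gli1, also counted among the 10 lower, passed the filter on low counts through astrocytes and is given as levels. Gli1, a target and effector of the pathway, had 0.488, 1.58 and 2.39 CPM in the lowest, median and highest ependymal library, against 29.8, 31.9 and 38.9 CPM in the astrocyte libraries. The libraries of the classes did not overlap. The receptor gene Ptch1 stood at 90.5 ± 10.9 against 469 ± 48.6 CPM, Gli2 at 60.5 ± 8.096 against 281 ± 15.9 CPM and Gli3 at 164 ± 20.7 against 696 ± 20.5 CPM, with adjusted p values of 4.98e-24, 3.28e-23 and 5.02e-24 in the edgeR test.

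Planar cell polarity aligns the cilia of neighbouring ependymal cells, and 11 of its 20 genes were higher and 7 lower (median 0.37). The core polarity gene Vangl1 had 126, 166 and 191 CPM in the lowest, median and highest ependymal library, against 23.03, 27.2 and 32.2 CPM in the astrocyte libraries. The log2 difference was 2.58 ± 0.07 (SE) (edgeR adjusted p = 2.25e-24). Celsr1, a polarity cadherin gene, stood at 93.3 ± 3.86 against 19.8 ± 2.42 CPM and Ccdc88c, which encodes Daple, at 396 ± 29.3 against 109 ± 9.13 CPM. The relatives Vangl2 and Prickle1 were lower, at 6.54 ± 1.93 against 10.5 ± 0.562 CPM and 53.3 ± 17 against 109 ± 5.49 CPM, and so was Fjx1, at 7.04 ± 1.64 against 26.6 ± 3.73 CPM.

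Junction and polarity genes split evenly, with 13 higher, 13 lower and 5 not called of 31. The cadherin-related genes Cdhr3 and Cdhr4 led. Cdhr3 had 695, 756 and 825 CPM in the lowest, median and highest ependymal library, against 3.14, 4.67 and 6.27 CPM in the astrocyte libraries. Both genes may travel with the gene of the rule, so they are given with no test. Crb2, which sets the apical domain, stood at 140.1 ± 7.88 against 10.4 ± 0.824 CPM, and the tight junction gene Ocln at 131 ± 13.3 against 20.7 ± 2.93 CPM. Gap junction genes of astrocytes, counted among the 13 lower, may travel with Slc1a2, which chose the astrocytes. They are given as levels with no test. Gjb6, for connexin 30, stood at 6.75 ± 2.23 against 70.5 ± 7.62 CPM, and Gja1, for connexin 43, at 119.8 ± 17.2 against 230.1 ± 25.8 CPM. Tjp1, Cdh2 and Cldn10 were also lower, with log2 differences of -1.63, -1.32 and -3.09.

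Of 38 tested genes for water, ions and bicarbonate, 12 were higher, 13 lower and 13 not called. Scnn1a, the alpha subunit of the epithelial sodium channel, had 50.5, 66.2 and 70.8 CPM in the lowest, median and highest ependymal library, against 0.865, 1.94 and 2.77 CPM in the astrocyte libraries. The chloride channel gene Clic6 stood at 43.2 ± 6.41 against 5.803 ± 1.69 CPM. The bicarbonate cotransporter gene Slc4a4 had 205, 248 and 314 CPM in the lowest, median and highest ependymal library. The astrocyte libraries had 2753, 2909 and 3089 CPM. Slc4a4 may travel with Slc1a2, which chose the astrocytes, so it is given as levels with no test. The cation channel gene Trpm3 stood at 475 ± 50.9 against 3702 ± 302 CPM. The water channel gene Aqp4 was at 137 ± 18.1 against 146 ± 8.95 CPM (edgeR adjusted p = 0.196), and its libraries overlapped. That outcome depended on the setting. Aqp4 was called lower without the filter on low counts (log2 difference -0.19), without replicate 6 (-0.14) and at 3 or more Dnah12 UMIs (-0.14). It was also called lower against a subset of the astrocytes chosen partly by Aqp4 itself (-0.72). Slc12a2, the sodium, potassium and chloride cotransporter of fluid secreting epithelia, was at 72.2 ± 7.103 against 67.03 ± 6.52 CPM and not called (edgeR adjusted p = 0.156). Its log2 difference of 0.12 also depended on the setting. Slc12a2 was called higher at 3 or more Dnah12 UMIs (0.16). It was called lower with clusters 1 and 2 only (-0.40), with few UMIs of other types allowed (-0.35) and without predicted doublets (-0.18).

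Transporters of nutrients and transmitters were mostly lower, 26 of 42 against 11 higher (median -0.62). The glucose transporter gene Slc2a1 stood at 54.5 ± 4.55 against 10.8 ± 1.21 CPM and the glutamate transporter gene Slc1a1 at 80.04 ± 7.72 against 17.1 ± 3.59 CPM. Slc13a4, a sulfate transporter gene, was at 16.2 ± 3.86 against 1.32 ± 0.604 CPM. Several transporters lower in ependymal nuclei are used as astrocyte genes and may travel with Slc1a2, so they are given as levels. The cystine and glutamate exchanger gene Slc7a11 had 18.2, 28.3 and 62.5 CPM in the lowest, median and highest ependymal library, against 387, 400.5 and 443 CPM in the astrocyte libraries. Slc1a3 stood at 351 ± 50.6 against 3034 ± 129 CPM, the GABA transporter gene Slc6a11 at 65.01 ± 12.9 against 527 ± 48.3 CPM and Slc7a10 at 15.6 ± 3.703 against 187 ± 14.9 CPM.

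Lipid genes were mostly lower, with 28 of 38 lower and 6 higher (median -1.01). Lrp2, or megalin, an endocytic receptor of epithelia, had 42.9, 55.8 and 63.5 CPM in the lowest, median and highest ependymal library, against 0.184, 0.928 and 1.21 CPM in the astrocyte libraries. The lipoprotein receptor genes Vldlr and Lrp8, which also bind reelin, were higher at 134 ± 11.9 against 31.6 ± 5.15 CPM and 152 ± 13.7 against 80.01 ± 4.17 CPM.

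Genes of astrocyte metabolism and identity took a smaller share of UMIs in ependymal nuclei. The 39 genes of this list took 1.09, 1.12 and 1.30% of ependymal UMIs in the lowest, median and highest library, against 5.73, 5.91 and 6.10% of astrocyte UMIs. The median log2 difference was -2.36, and for 33 of the 39 the ependymal libraries all lay below the astrocyte libraries. These genes travel with Slc1a2, which chose the astrocytes, so their levels are a description with no test. The NMDA receptor subunit gene Grin2c stood at 13.3 ± 3.67 against 220.3 ± 13.5 CPM, the proteoglycan gene Gpc5 at 768 ± 188 against 11461 ± 344 CPM and the glutamine synthetase gene Glul at 29.3 ± 7.23 against 388 ± 22.6 CPM. S100b, used as a marker of both classes, stood at 59.4 ± 8.42 against 27.9 ± 3.26 CPM. The glial transcription factor gene Sox9 was at 55.9 ± 6.27 against 55.6 ± 7.99 CPM. With clusters 1 and 2 only, the log2 differences were -5.24 for Gpc5 (here -3.92), -5.19 for Grin2c (here -4.10) and -4.70 for Slc7a11 (here -3.70). Of 213 genes followed through the alternatives, 32 moved by more than 1.5 times there, 30 of them away from 0.

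Of 38 stem cell and Notch genes, 8 were higher and 23 lower (median -0.84). Cd24a, a surface gene used to sort ependymal cells, had 18.6, 24.6 and 29.4 CPM in the lowest, median and highest ependymal library, against 0, 0.748 and 1.14 CPM in the astrocyte libraries. The intermediate filament genes Vim and Nes stood at 22.1 ± 4.45 against 3.498 ± 0.829 CPM and 14.1 ± 3.11 against 0.696 ± 0.304 CPM, and Prom1, which encodes the membrane protein CD133 of ependymal cilia and stem cells, at 18.5 ± 5.81 against 4.14 ± 0.828 CPM. The ependymal and astrocyte libraries did not overlap for any of these 4 genes. On the lower side stood the growth factor receptor gene Egfr at 29.8 ± 15.1 against 422 ± 16.4 CPM, the Notch target gene Hes5 at 5.07 ± 0.7998 against 57.01 ± 8.17 CPM, Notch1 at 56.1 ± 8.39 against 113 ± 7.52 CPM and the stem cell regulator gene Nr2e1 at 8.15 ± 2.45 against 69.1 ± 3.18 CPM.

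Of 34 tested patterning factors, 22 were lower and 6 higher (median -0.92). The homeobox gene Otx2 stood at 63.6 ± 6.35 against 44.3 ± 3.36 CPM, and Msx1 and Barhl1, both low, stood at 13.9 ± 1.92 against 1.04 ± 0.612 CPM and 8.201 ± 1.87 against 0.209 ± 0.1304 CPM. The forebrain factor genes Emx2, at 6.79 ± 2.37 against 42.97 ± 3.41 CPM, Lhx2, at 6.52 ± 2.15 against 46.8 ± 2.45 CPM, and Pax6, at 17.5 ± 6.096 against 73.7 ± 8.97 CPM, were lower. The septal and midline factor gene Zic1 stood at 94.3 ± 15.03 against 156 ± 25.5 CPM, and Six3 at 18.8 ± 2.71 against 21.2 ± 2.26 CPM was not called.

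In the list of Wnt, BMP, SHH and FGF signalling, 23 of 37 genes were lower and 8 higher (median -1.03). Bmp6, a ligand, had 195, 217 and 255 CPM in the lowest, median and highest ependymal library, against 25.8, 30.9 and 37.2 CPM in the astrocyte libraries. Its log2 difference was 2.82 ± 0.06 (SE) (edgeR adjusted p = 1.25e-25). The ligand gene Fgf18 stood at 20.3 ± 5.5 against 1.12 ± 0.308 CPM and Smad6, an inhibitor within the BMP pathway, at 23.9 ± 6.33 against 8.01 ± 1.37 CPM. The receptor gene Bmpr1b was lower, at 67.8 ± 13.7 against 908 ± 41.4 CPM, as was the ligand gene Wnt7a, at 1.995 ± 1.17 against 28.8 ± 2.52 CPM.

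Among 27 tested genes of a list of cerebrospinal fluid and niche factors, not all of them secreted, 9 were higher and 11 lower (median 0.12). These counts became 10 and 12 of 28 with clusters 1 and 2 only, and the median became -0.22. Rarres2, for the chemoattractant chemerin, had 81.2, 109 and 125.1 CPM in the lowest, median and highest ependymal library, against 3.64, 4.33 and 5.72 CPM in the astrocyte libraries. Cp, for the ferroxidase ceruloplasmin, stood at 68.5 ± 7.38 against 6.22 ± 0.738 CPM, the growth factor binding gene Igfbp2 at 36.8 ± 10.3 against 5.03 ± 1.44 CPM and Nnat at 1006 ± 64.1 against 192 ± 14.1 CPM. Sspo, whose product forms the Reissner fibre, was low in both classes, at 13.6 ± 2.68 against 0.991 ± 0.496 CPM. Lower were the complement gene C4b at 4.29 ± 1.94 against 38.4 ± 4.28 CPM, Ptn at 96.2 ± 20.02 against 799 ± 43.2 CPM and Vegfa at 14.1 ± 3.74 against 109.5 ± 12.6 CPM. In iron, metal and redox handling 9 of 23 genes were higher and 7 lower, with the iron transporter gene Slc11a2 at 50.4 ± 8.37 against 18.3 ± 1.66 CPM and Gpx4, which protects membranes from peroxidation, at 40.6 ± 4.19 against 17.03 ± 2.34 CPM, against Aldh1a1 at 6.38 ± 2.83 against 75.9 ± 8.28 CPM.

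Receptor genes were more often lower than higher, 36 against 16 of 63 (median -0.74). Npy2r, a receptor for neuropeptide Y, had 38.6, 50.3 and 63.2 CPM in the lowest, median and highest ependymal library, against 0.489, 1.403 and 2.04 CPM in the astrocyte libraries. The 6 ependymal libraries all lay above the astrocyte libraries. The lysophosphatidic acid receptor genes Lpar3 and Lpar1 stood at 50.1 ± 9.92 against 0.733 ± 0.387 CPM and 118 ± 15.96 against 17.3 ± 2.24 CPM. Adgrv1, a large adhesion receptor gene, stood at 977 ± 73 against 108 ± 7.63 CPM, the sphingosine receptor gene S1pr3 at 27.2 ± 6.15 against 7.08 ± 1.11 CPM and the ATP-gated channel gene P2rx7 at 55.2 ± 5.29 against 22.9 ± 2.005 CPM. The estrogen receptor gene Esr1 stood at 12.7 ± 4.46 against 2.595 ± 0.214 CPM. Lower were the histamine receptor gene Hrh1 at 4.64 ± 2.32 against 61.5 ± 6.03 CPM, S1pr1 at 16.6 ± 5.49 against 138 ± 15.7 CPM, the metabotropic glutamate receptor gene Grm3 at 189.6 ± 51.7 against 2112 ± 66.2 CPM, the endothelin receptor gene Ednrb at 40.7 ± 7.21 against 227 ± 16.5 CPM and the glucocorticoid receptor gene Nr3c1 at 68.6 ± 8.31 against 240.2 ± 9.83 CPM.

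**Figure D4:**
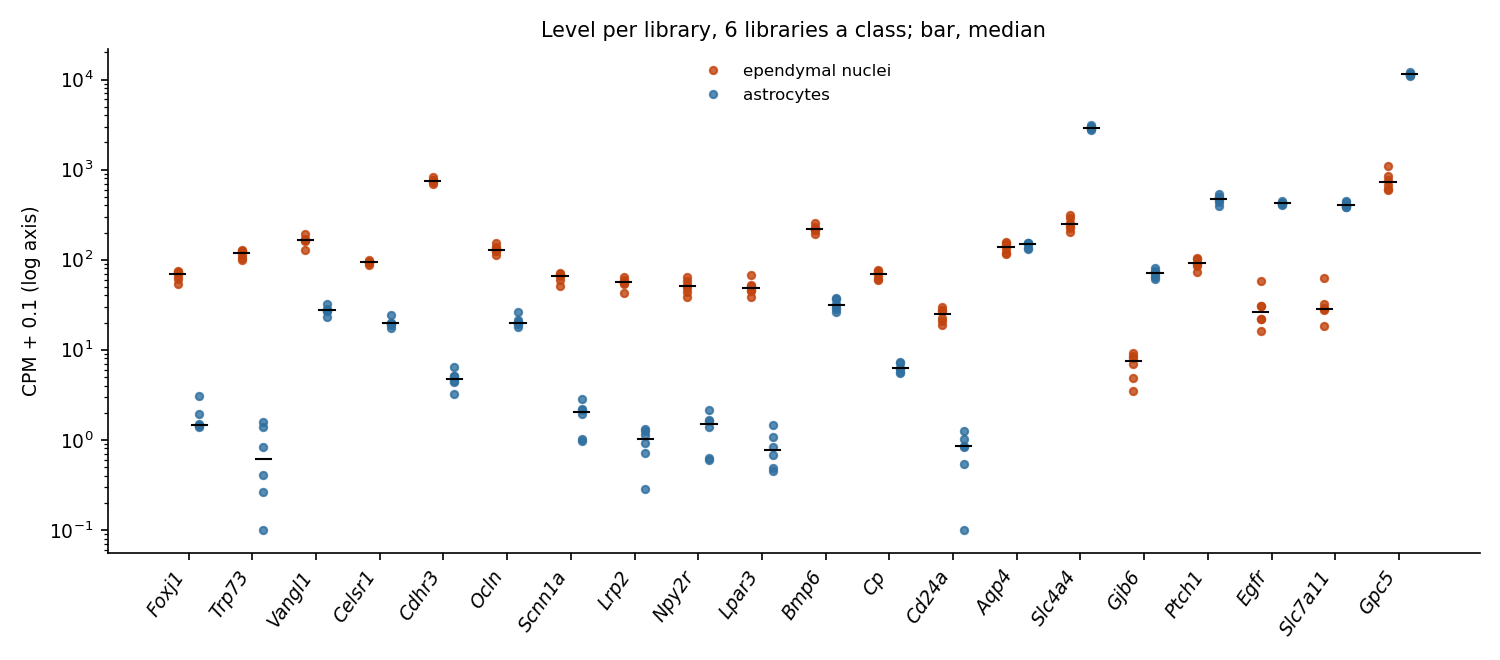
CPM per library (plus 0.1, log axis) of 20 genes in ependymal nuclei (orange, left) and astrocytes (blue, right), 1 point per library and a bar at the median. The classes do not overlap for any of the genes drawn except Aqp4; Cdhr3 has medians of 756 and 4.67 CPM, and Slc4a4 has medians of 248 and 2909 CPM. Foxj1 and Trp73 are ciliary regulators and were not tested.

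Smaller lists gave mixed counts. In antigen presentation and interferon response, 5 of 21 genes were higher and 7 lower. Nlrc5, a transactivator of MHC class I genes, stood at 33.03 ± 8.41 against 3.23 ± 0.595 CPM, and the double-stranded RNA sensor gene Tlr3 at 3.44 ± 1.24 against 30.97 ± 2.35 CPM. Of 12 tested immediate early genes 8 were higher and none lower, beside the 35.4% of all genes that were higher. Nr4a3 stood at 37.5 ± 19.2 against 4.38 ± 1.66 CPM and Npas4 at 8.74 ± 2.79 against 1.96 ± 0.847 CPM, and the list summed to 101 to 243 CPM in ependymal libraries, against 60.2 to 76.7 CPM in astrocyte libraries. Of 5 sex-linked genes, Tsix was higher at 29.3 ± 3.83 against 2.42 ± 0.7196 CPM, and the Y-linked genes Eif2s3y and Ddx3y were lower at 104 ± 11.05 against 152 ± 10.9 CPM and 67.4 ± 5.48 against 93.95 ± 6.24 CPM.

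Outside the lists, the 8 largest positive differences were those of Tekt3, Acap1, Unc5cl, Ccdc180, Cpn1, Shisal2a, Ttll6 and Dlx4os. Their astrocyte levels rest on few counts, so levels are given in place of a fold. Unc5cl had 644, 755 and 796 CPM in the lowest, median and highest ependymal library, against 1.38, 2.46 and 3.79 CPM in the astrocyte libraries. Ttll6, a tubulin glutamylase gene, stood at 233 ± 20.2 against 0.9397 ± 0.475 CPM and Tekt3, for a tektin of the doublet microtubules, at 32.7 ± 4.98 against 0.0524 ± 0.0813 CPM. Cpn1, for a carboxypeptidase that trims peptides in blood plasma, stood at 48.6 ± 5.197 against 0.135 ± 0.222 CPM. The 8 largest negative differences were those of Egfros, Hif3a, Dbx2, Otc, Atp13a4, Tmem51, Pdzph1 and Nmur2, several of them at few counts in ependymal nuclei. The homeobox gene Dbx2 stood at 8.01 ± 2.703 against 173 ± 11.4 CPM and Otc, for a urea cycle enzyme, at 1.31 ± 1.298 against 27.97 ± 4.21 CPM. Egfros, Dlx4os and Tsix lie opposite other genes, and no source used here says whether counting used strand, so reads of partners may not be told apart.

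Mitochondrial transcripts took a larger share of UMIs in ependymal nuclei. They made up 0.299, 0.444 and 0.630% of UMIs in the lowest, median and highest ependymal library, against 0.0395, 0.0460 and 0.0514% in astrocytes and 0.0400, 0.0472 and 0.0598% in all other nuclei. Within each library the ependymal share was 7.55 to 12.3 times that of astrocytes, and all 13 mitochondrial genes had libraries that did not overlap. The rule set a ceiling on this share, so it has no test. The mean over libraries of the median per nucleus was 0.431% at 5 or 6 Dnah12 UMIs and 0.238% at 20 or more, and the share in clusters 1 and 2 was 0.501 and 0.403%, with 0.274% in cluster 3.

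**Figure D5:**
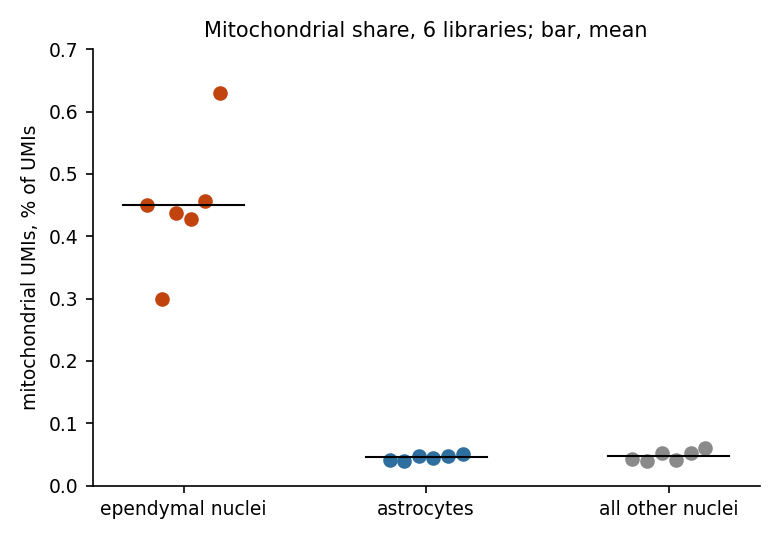
Mitochondrial UMIs as a percentage of all UMIs in ependymal nuclei, astrocytes and all other nuclei, with 1 point per library and a bar at the mean. Ependymal libraries lie at 0.299 to 0.630%, and the astrocyte and other libraries all lie at or under 0.0598%.

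Variation among the 6 ependymal libraries was measured as the range of log2 CPM. Of 3825 genes with a mean of 50 CPM or more, the median range between the lowest and highest library was 0.35 on the log2 scale and 86 genes (2.25%) ranged over 1 or more. The 10 largest ranges were those of Ust, Epha3, Pik3r3, Nfasc, Tns3, Ntng1, Irs2, Adarb2, Nell1 and Frmd4a, at 3.04 to 1.69. Several rested on 1 nucleus. In replicate 6, a nucleus of 30957 UMIs held 961 of 1470 Frmd4a counts, 254 of 359 Pik3r3 counts, 249 of 295 Nfasc counts and 132 of 162 Ust counts, and without it Frmd4a in that library was 415 instead of 1170 CPM. The doublet caller did not mark this nucleus, which fell in cluster 4. Among 3439 genes of which no nucleus held over 10% of a library's counts, 22 ranged over 1, and 15 of these were not mitochondrial. Irs2, an adaptor of insulin signalling, led them, at 49.2, 42.3, 85.7, 75.2, 143 and 121 CPM in replicates 1 to 6, against a mean of 22.8 ± 3.96 CPM in astrocytes (SD, n = 6). Replicates 5 and 6 were high and replicates 1 and 2 low.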

How the data were processed

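Single-nucleus RNA was counted in 6 droplet libraries. The authors deposited matrices of unnormalized UMI counts. The submitters' processing notes name STAR and Cell Ranger 3.1.0, while the file headers give Cell Ranger 5.0.0. No source used here gives the genome build or whether introns or strand were used. Other deposited columns hold gene names and barcodes. The series title speaks of single nuclei and the protocol of single cells.

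Members, lists and comparisons were chosen with earlier results of these data known. Counts were summed per library and class, and genes passing filterByExpr were tested with edgeR 4.0.16 (TMM, robust quasi-likelihood fit, library as a block, Benjamini-Hochberg, adjusted p under 0.05), after a test on simulated data. The block rests on both classes coming from the same library. CPM is per 1000000 UMIs of a class in a library. Named genes were up to 2 higher and 2 lower per list (4 higher in ciliary lists) with the largest differences, the same direction in 6 of 6 libraries and 20 CPM or more, and 8 each way outside the lists; others were added from the lists after their values were seen. Ependymal clusters used 1500 genes, 20 components, 20 neighbours and Leiden at resolution 0.5. DESeq2 1.42.0 was an alternative. Some genes of the lists are counted but not reported by name here. Of listed symbols, 16 were not in the files as written, and 6 of these were matched by older or newer names.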

Additional observations from a re-analysis of the deposited data

Results flagged for a closer look

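In 10 of 124 measures of the 6 ependymal libraries (8.06%), 1 library lay far from the others for its gap to the nearest one relative to the whole range. Chance flags about 1 in 20 such groups, but Ust, Pik3r3, Tns3, Ntng1 and Frmd4a, 5 of the 10, are among the genes chosen for the largest range between libraries, so the share cannot be read against that rate. Replicate 6 stood apart in Ust (129 CPM in replicate 6, nearest library 55.2 CPM), Pik3r3 (286 CPM in replicate 6, nearest 99.7 CPM), Tns3 (154 CPM in replicate 6, nearest 77.7 CPM) and Frmd4a (1169.6 CPM in replicate 6, nearest 606 CPM). A single nucleus held 65.4 to 81.5% of the counts of these 4 genes in that library. Replicate 2 stood apart in Ntng1, an axon guidance gene (177 CPM in replicate 2, nearest 93.4 CPM). Replicate 3 stood apart in Slc7a11 (62.5 CPM in replicate 3, nearest 31.8 CPM), Egfr (58.3 CPM in replicate 3, nearest 30.7 CPM) and Tsix (36.5 CPM in replicate 3, nearest 30.01 CPM). For Slc7a11 a single nucleus marked as a doublet held 50.6% of the counts of replicate 3, and without it the value was 31.2 CPM. Replicate 5 stood apart in the ciliary genes Tctex1d4 (95.3 CPM in replicate 5, low, nearest 115 CPM) and Pih1h3b (118 CPM in replicate 5, high, nearest 93.9 CPM).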

How the results depend on the processing

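The counts of genes higher and lower, 5034 and 4552, stayed within 1.5 times under every alternative run, at 3905 to 5995 and 3700 to 5767, and at 4794 to 4972 and 4311 to 4480 without each replicate in turn. Without the replicate block that pairs the classes of a library they were 4991 and 4537. The mean share moved past its spread to 3.33% at 10 or more Dnah12 UMIs and 5.84% at 500 per 1000000, and was 4.73 to 5.11% without each replicate. Of 213 genes followed, 208 kept direction and side of the threshold in each of the 17 alternatives that gave them a value. The alternative with nuclei thinned to 2000 UMIs gave values for only 208 of the 213. Many of the 213 were chosen for large differences, which makes such a change less likely. With clusters 1 and 2 only, signs turned for Mbp (-0.24), St18 (-0.63), Slc12a2 (-0.40) and Aqp4 (0.0039); with few UMIs of other types allowed, for Mbp (-0.082), St18 (-0.34) and Slc12a2 (-0.35); and without predicted doublets for Slc12a2 (-0.18). Slc12a2 was called lower in each of these alternatives and called higher at 3 or more Dnah12 UMIs (0.16). Sox9, at 0.03, turned without the filter on low counts (-0.071) and at 3 or more Dnah12 UMIs (-0.021). It also turned against a subset of the same astrocytes that had UMIs of Gja1, Aqp4 or Aldh1l1 as well (-0.023). Without single replicates it ranged over -0.056 to 0.058. The cause was not tested. Genes at a few CPM rest on few counts in 1256849 to 2532211 UMIs per library.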

Other observations

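Among markers of other cell types, single genes differed from the rest of their list. Of 7 microglial markers 4 were tested, with 2 higher (Cx3cr1 and Inpp5d) and 1 lower. With clusters 1 and 2 only, 1 of these 4 was higher and 2 were lower. Cx3cr1, a microglial chemokine receptor gene, stood at 109 ± 9.04 against 14.9 ± 1.76 CPM (SD, n = 6), while the microglial genes Csf1r, C1qa and C1qb were at 4.77, 1.18 and 1.71 CPM in ependymal nuclei and 3.84, 1.52 and 1.61 CPM in astrocytes. Of 6 pericyte or smooth muscle markers 3 were tested, with Pdgfrb and Notch3 lower. Acta2, counted as higher, passed the filter on low counts through ependymal nuclei and is given as levels. Acta2, for smooth muscle actin, stood at 9.01 ± 2.82 against 1.01 ± 0.425 CPM, with the pericyte gene Pdgfrb at 5.54 ± 2.08 against 73.5 ± 5.85 CPM. Cx3cr1 was higher in edgeR's quasi-likelihood test (adjusted p = 5.35e-23, 6 of 6 libraries). In the GENCODE mouse annotation the Cx3cr1 model spans the gene Csrnp1 on the same strand, so the gene its reads come from is uncertain. Cx3cr1 and Acta2 were singled out after their values were seen.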
